A study of Schizosaccharomyces pombe with 10 samples.

Results

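The genes at and beside the 3 centromeres of the fission yeast Schizosaccharomyces pombe were taken by position alone, as every annotated gene that starts between 3700000 and 3840000 on chromosome I (cen1), between 1550000 and 1700000 on chromosome II (cen2) or between 1020000 and 1190000 on chromosome III (cen3) of build ASM294v2. This gave 330 of the 7268 genes counted, 91 at cen1, 132 at cen2 and 107 at cen3. They comprised 137 coding genes, 73 non-coding RNAs, 59 tRNA genes, 1 rRNA gene and 60 further RNA entries with ENSRNA identifiers. Poly(A)-selected RNA was sequenced from 5 strains with 2 libraries each, grown in rich medium at 30 °C. Strain YYX46sp (cph1-delta::KANMX, here cph1Δ) and strain YYX47sp (cph2-delta::KANMX, here cph2Δ) were set against their parent YYX43sp (wt), a dy1779 line of mating type h-. All 3 of these strains carry ade6-m216, leu1-32, ura4-d18 and the his3 allele d1. Strain YBL686sp (h- with set2:null:KANMX, here set2Δ) was set against its own parent YBL685sp (wt2), for which the labels give mating type h- and no other allele. Each deletion is 1 strain, made with the same marker, and the labels are silent on whether libraries of 1 strain are independent cultures, so p-values measure only the spread between these libraries.

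A fission yeast centromere has a central core wrapped in nucleosomes with the histone H3 variant CENP-A (Cnp1), on which the kinetochore is built. Outer repeats of the dg and dh families lie on both sides. These repeats are packed in heterochromatin, and their RNA polymerase II transcripts are normally cut by the RNA interference machinery and kept at a low level. Clusters of tRNA genes bound the domains. Set2 methylates histone H3 behind elongating RNA polymerase II, and Cph1 and Cph2 are PHD finger proteins of Clr6 complex II, a histone deacetylase complex related to Rpd3S that acts on the same transcribed chromatin.

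Depth was 9711537 to 13051467 assigned counts per library, of which the 330 genes took 3.37% to 4.09%. Levels are given as CPM, counts scaled to library size after TMM normalisation, with the SD over n = 2 libraries. The TMM factor was highest in cph1Δ replicate 2 (1.25) and lowest in wt replicate 2 (0.845). The deleted genes matched the labels. The cph1 level was 4.32 and 2.64 CPM in cph1Δ against 79.3 and 81.2 in wt, cph2 was 6.95 and 2.37 in cph2Δ against 134 and 113 in wt, and set2 was 8.60 and 8.25 in set2Δ against 102 and 109.5 in wt2. In cultures sequenced in bulk, fewer cells making a transcript and less of it per cell cannot be told apart.

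Each window holds 1 long stretch that no coding gene reaches, called the coding gap below. At cen1 it ran from 3751730 to 3790911 (39.2 kb) between per1 and emc5, at cen2 from 1596745 to 1648152 (51.4 kb) between rpb1 and yox1, and at cen3 from 1064444 to 1142615 (78.2 kb) between chk1 and ppc1. The 3 gaps held 142 of the 330 genes, among them 32 non-coding RNAs (the gap RNAs below: 9 at cen1, 16 at cen2 and 7 at cen3) and 55 tRNA genes.

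Many gap RNAs lie in repeats and have identical or near-identical copies in the same gap or at another centromere, which limits what can be counted. Within the cen2 gap, for example, SPNCRNA.361 aligned over 1009 bases to the reverse strand of SPNCRNA.372 with 100% identity. Of the 30 gap RNAs of at least 100 bases, 14 had no 100-base window that is found once in the genome, 11 had some, and 5 consisted of such windows throughout. The sequences below come from RefSeq (ASM294v3, in which all 32 gap RNAs have the same start and end as in the counted annotation). They show 2 pairs of gap RNAs at different centromeres. Each is a stretch of 150 bases that aligns without insertions and has identical ends. Each pair is printed 5′ to 3′ along the strand given, with bases that differ between the pair in capitals. SPNCRNA.234, the gap RNA with the highest level in cph1Δ, aligned over its full 1032 bases to the reverse strand of SPNCRNA.362 at cen2 with 98.9% identity.

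SPNCRNA.359, the gap RNA that passed the test in both cph2Δ and set2Δ, shared 680 aligned bases at 97.8% identity with the reverse strand of SPNCRNA.232 at cen1, and 150 bases of that part differed at 1 position:
SPNCRNA.359 (chrII:1604602-1604751, - strand): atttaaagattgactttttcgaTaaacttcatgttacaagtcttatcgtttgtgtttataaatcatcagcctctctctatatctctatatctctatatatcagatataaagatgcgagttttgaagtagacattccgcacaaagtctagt
SPNCRNA.232 (chrI:3763536-3763685, + strand): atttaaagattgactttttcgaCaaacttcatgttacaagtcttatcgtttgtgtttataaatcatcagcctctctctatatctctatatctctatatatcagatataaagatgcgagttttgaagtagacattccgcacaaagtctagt

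SPNCRNA.230 (nam5), at the left edge of the cen1 gap, shared 1019 aligned bases at 99.8% identity with the reverse strand of SPNCRNA.372 at cen2, and the stretch shown differed at 1 of 150 positions:
SPNCRNA.230 (chrI:3754092-3754241, + strand): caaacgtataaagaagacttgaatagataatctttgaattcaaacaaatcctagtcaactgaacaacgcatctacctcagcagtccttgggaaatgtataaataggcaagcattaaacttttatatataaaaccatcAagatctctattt
SPNCRNA.372 (chrII:1637678-1637827, - strand): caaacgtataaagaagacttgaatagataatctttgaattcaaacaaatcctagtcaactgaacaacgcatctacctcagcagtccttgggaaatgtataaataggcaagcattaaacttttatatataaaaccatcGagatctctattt

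The authors' counting kept neither reads that map to several places nor reads that lie on several genes, so identical copies lose most of their reads. Of the 330 genes, 165 were at 0 in all 10 libraries. All 60 tRNA and rRNA genes were among them: each has a second entry with an ENSRNA identifier and the same bounds, so any read there falls on 2 genes. A further 17 coding genes at 0 included the cohesion protector sgo2, the ribosomal protein gene rpl1002, the recombination gene rec6 and meu27. At most 5.46% of the exon bases of each of the 17 belong to that gene alone, and 10 have no such base, so a 0 says nothing about their transcription. Among the gap RNAs, 22 of 32 had a count, and 11 of the 14 without any unique 100-base window had 5 counts or fewer over all libraries. The largest exception was SPNCRNA.230, with 142. Of the 5 that are unique throughout, 3 had counts, and SPNCRNA.369 and SPNCRNA.370 at cen2 were at 0. Levels of repeat RNAs are therefore uncertain, and copies in the same gap or at 2 centromeres cannot be separated beyond their differing bases.

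**Figure D1:**
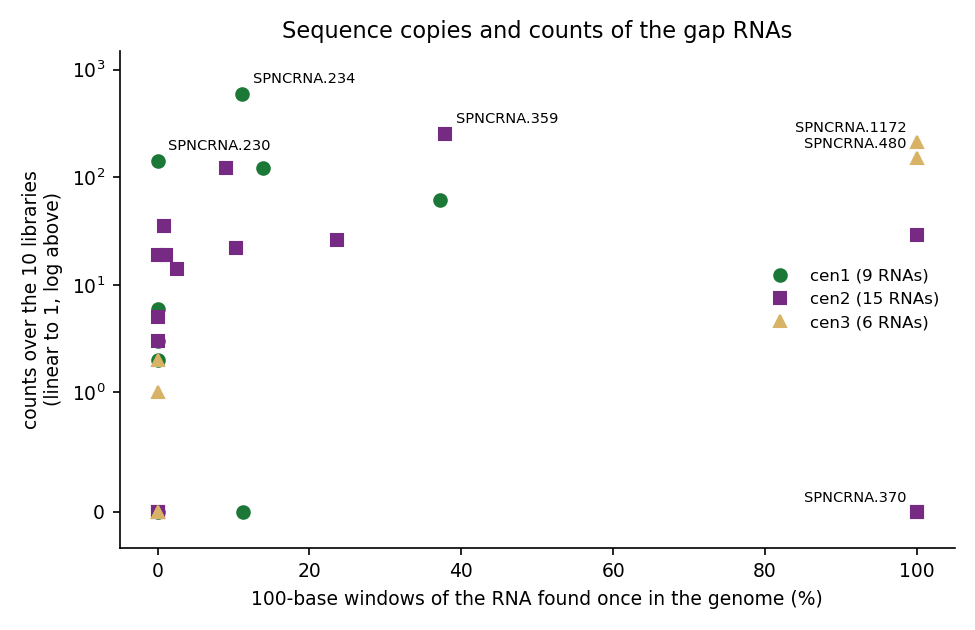
Each point is 1 of the 30 gap RNAs of at least 100 bases, with the share of its 100-base windows found once in the genome on the x axis (%) and its counts summed over the 10 libraries on the y axis (linear to 1, logarithmic above). SPNCRNA.234 drew the most counts (597) although 11.1% of its windows are unique.

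Gap RNAs together were higher in each deletion than in its parent. Their summed counts were 257 and 339 in cph1Δ and 147 and 145 in cph2Δ, against 59 and 47 in wt, and 227 and 495 in set2Δ against 65 and 66 in wt2. Both libraries of each deletion lay above both of its parent. Scaled, the sums averaged 24.2 ± 4.06 CPM in cph1Δ and 13.4 ± 1.63 in cph2Δ against 5.40 ± 0.62 in wt, and 30.1 ± 10.9 in set2Δ against 6.18 ± 1.01 in wt2. The ratio of sums was 4.49 (95% exact counting interval 3.64 to 5.57) in cph1Δ over wt, 2.47 (1.97 to 3.11) in cph2Δ over wt and 5.09 (4.22 to 6.18) in set2Δ over wt2. Between the parents, wt2 over wt, it was 1.13 (0.87 to 1.47). These intervals, and all those given below with a ratio of counts, cover counting error only. The counts of both libraries of a group were pooled, so the spread between libraries is left out. Reads were not counted as molecules. With 1 compared library left out in turn, a setting added for the sums after seeing the data, the ratio ran from 3.94 to 5.01 in cph1Δ, from 2.27 to 2.696 in cph2Δ and from 3.67 to 6.19 in set2Δ. No test was run on the sums.

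At cen1 the gap RNAs summed to 176 and 249 counts in cph1Δ, 46 and 53 in cph2Δ, and 4 and 16 in wt. In set2Δ they gave 116 and 226 counts, against 27 and 19 in wt2. The ratio was 17.0 (10.8 to 28.04) in cph1Δ, 4.43 (2.72 to 7.57) in cph2Δ and 6.87 (5.04 to 9.57) in set2Δ, each over its parent, and 2.10 (1.22 to 3.75) in wt2 over wt. At cen2 the sums were 39 and 49 in cph1Δ and 58 and 76 in cph2Δ, against 23 and 9 in wt, and 75 and 183 in set2Δ against 14 and 22 in wt2. The cen2 ratio was 2.19 (1.45 to 3.399) in cph1Δ, 3.75 (2.53 to 5.70) in cph2Δ and 6.62 (4.66 to 9.67) in set2Δ. At cen3 the sums were 42 and 41 in cph1Δ and 43 and 16 in cph2Δ, against 32 and 22 in wt, and 36 and 86 in set2Δ against 24 and 25 in wt2. There the libraries of cph2Δ and wt overlapped, with a ratio of 0.98 (0.66 to 1.44), while the ratio was 1.23 (0.86 to 1.76) in cph1Δ and 2.30 (1.64 to 3.28) in set2Δ. The ratios by centromere turned on single libraries. In cph1Δ the cen1 ratio was 10.3 without wt replicate 1 and 43.7 without wt replicate 2. In wt2 over wt the cen1 ratio was 1.27 without wt replicate 1 and 5.42 without wt replicate 2. In cph2Δ the cen1 ratio was 2.68 and the cen2 ratio 6.45 without wt replicate 1, whereas without wt replicate 2 they were 11.4 and 2.69. In set2Δ they were 6.49 and 9.44 without wt2 replicate 2, and at cen3 the cph2Δ ratio was 0.49 without cph2Δ replicate 1 and 1.55 without cph2Δ replicate 2. The cen3 sum comes almost wholly from 2 RNAs at the left edge of the gap, because the rest of that gap holds RNAs with 2 counts or fewer.

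**Figure D2:**
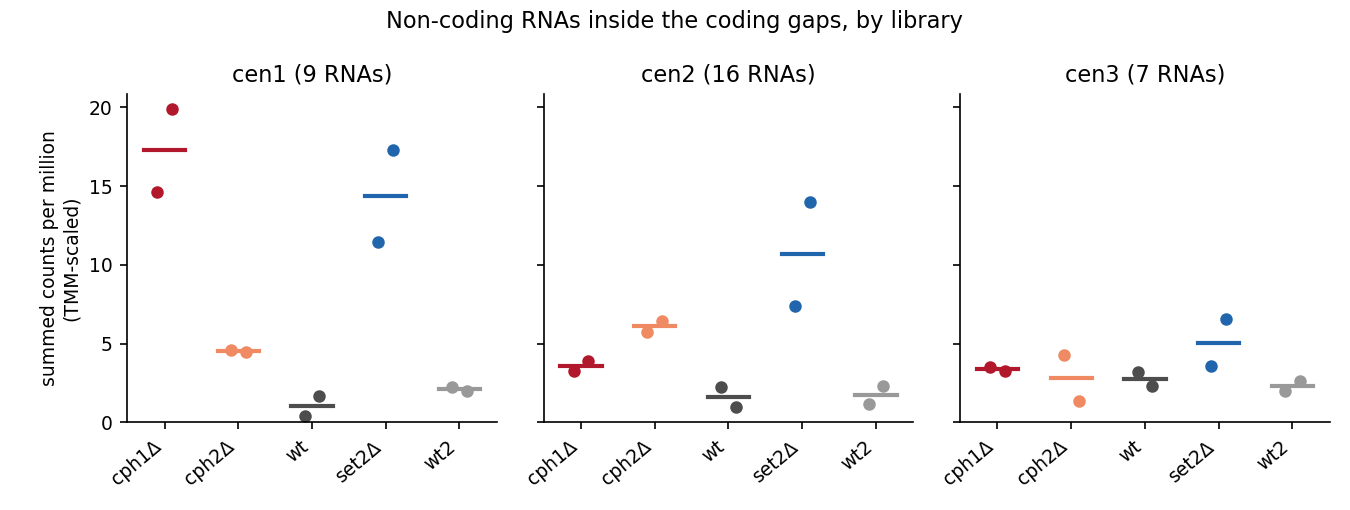
Summed TMM-scaled CPM of the gap RNAs (y axis) in each library (points) of cph1Δ, cph2Δ, wt, set2Δ and wt2 (x axis), with the group mean as a bar, for each centromere. At cen1 cph1Δ averaged 17.3 CPM against 1.04 in wt, and set2Δ averaged 14.4 against 2.13 in wt2, whereas at cen3 cph2Δ and wt overlapped.

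The cen1 excess of cph1Δ came mostly from 1 RNA. SPNCRNA.234 (1032 bases, chromosome I from 3786105 to 3787136, in the right part of the gap) gave 166 and 197 counts in cph1Δ and 6 and 11 in cph2Δ, against 0 and 11 in wt, and 54 and 131 in set2Δ against 19 and 2 in wt2. The cph1Δ and set2Δ libraries stood above all 6 others. It made up 64.6% and 58.1% of the gap counts in the cph1Δ libraries but 4.1% and 7.6% in those of cph2Δ. In cph1Δ it rose by 4.67 ± 0.999 on the log2 scale (SE of the fit; edgeR quasi-likelihood F-test, adjusted p = 0.0198), a count ratio of 26.3 (14.5 to 53.2). The fit gave 0.43 ± 1.10 in cph2Δ (edgeR adjusted p = 0.847) and 3.02 ± 0.92 in set2Δ (edgeR adjusted p = 0.0924), neither past the threshold of 0.05, while DESeq2 called it in set2Δ too (3.03, adjusted p = 0.00659). With 1 compared library left out in turn, the cph1Δ value ran from 3.65 to 10.4 and edgeR's adjusted p from 0.0349 to 0.111, and the call was lost without wt replicate 1 or without cph1Δ replicate 2. Without SPNCRNA.234 the summed gap counts were 91 and 142 in cph1Δ against 59 and 36 in wt, a ratio of 1.96 (1.53 to 2.51), while the ratio in cph2Δ was 2.59 (2.04 to 3.31) and that in set2Δ over wt2 was 4.51 (3.67 to 5.59). Its copy SPNCRNA.362 had 2 and 4 counts in cph1Δ and 2 and 9 in cph2Δ, against none in wt, and 5 and 10 in set2Δ against 2 and 1 in wt2.

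SPNCRNA.359 (2225 bases, chromosome II from 1602773 to 1604997, in the left part of the gap) was the gap RNA that passed the edgeR test in cph2Δ and in set2Δ. It gave 12 and 12 counts in cph1Δ and 37 and 54 in cph2Δ, against 2 and 2 in wt, and 26 and 100 in set2Δ against 4 and 6 in wt2. Every deletion library lay above every parent library. With 2 to 6 counts in each parent library, SPNCRNA.359 reached the test through the deletion libraries. Its calls therefore describe it and are no independent support for a rise. The log2 difference was 4.26 ± 0.80 in cph2Δ (edgeR adjusted p = 0.0105) and 3.41 ± 0.71 in set2Δ (edgeR adjusted p = 0.0179), against 2.20 ± 0.86 in cph1Δ, which missed the threshold (edgeR adjusted p = 0.156). The count ratio over wt was 4.79 (1.64 to 19.0) in cph1Δ and 20.4 (7.69 to 76.3) in cph2Δ, and over wt2 it was 11.6 (6.13 to 24.9) in set2Δ. With 1 compared library left out, edgeR's adjusted p ran from 0.0184 to 0.109 in cph2Δ, where the call held without cph2Δ replicate 1, and from 0.024 to 0.198 in set2Δ, where it held without set2Δ replicate 1.

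The other 6 tested gap RNAs did not pass in any deletion. SPNCRNA.230, nam5, gave 1 and 32 counts in cph1Δ and 13 and 10 in cph2Δ, against 0 and 1 in wt, and 27 and 52 in set2Δ against 1 and 5 in wt2. The 2 cph1Δ libraries were far apart, and 1 of them overlapped wt. Its ratio over the single wt count was 20.6 (3.34 to 848) in cph2Δ, and over wt2 it was 12.2 (5.35 to 34.2) in set2Δ. No window of 50, 100 or 150 bases of SPNCRNA.230 is found once in the genome, yet it drew 142 counts. Which copy these reads came from is therefore uncertain. In the left part of the cen1 gap SPNCRNA.231 gave 4 and 5 counts in cph1Δ and 12 and 10 in cph2Δ, against 4 and 0 in wt, and 8 and 14 in set2Δ against 4 and 0 in wt2. Its neighbour SPNCRNA.232 gave 4 and 12 in cph1Δ and 15 and 21 in cph2Δ, against 0 and 4 in wt, and 26 and 27 in set2Δ against 2 and 10 in wt2. Both were above the parent without overlap in cph2Δ and in set2Δ. These 2 RNAs had ratios of 4.92 (1.67 to 19.7) and 8.06 (2.89 to 31.2) in cph2Δ over wt, and of 5.08 (1.73 to 20.3) and 4.08 (2.15 to 8.39) in set2Δ over wt2. In cph1Δ over wt they were 1.79 (0.50 to 7.98) and 3.19 (1.03 to 13.1). At cen2 SPNCRNA.373 gave 14 and 12 counts in cph1Δ and 9 and 7 in cph2Δ, against 9 and 3 in wt, and 18 and 38 in set2Δ against 0 and 11 in wt2.

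At cen3, SPNCRNA.480 and SPNCRNA.1172 are the tested gap RNAs that have no copy elsewhere, and both lie within the first kilobases right of chk1. SPNCRNA.480 gave 22 and 22 counts in cph1Δ and 18 and 6 in cph2Δ, against 6 and 14 in wt, and 18 and 33 in set2Δ against 6 and 6 in wt2. The set2Δ ratio was 3.93 (2.07 to 8.10), with a fitted log2 value of 1.92 ± 0.78 (edgeR adjusted p = 0.216). SPNCRNA.1172 gave 20 and 19 counts in cph1Δ and 24 and 10 in cph2Δ, against 26 and 8 in wt, and 18 and 51 in set2Δ against 18 and 19 in wt2. Its groups overlapped in all 3 comparisons.

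An RNA with next to no counts in the parents could reach the test through the deletion libraries alone, so the 8 were described one by one. The 24 gap RNAs with too few counts to test summed to 14 and 28 counts in cph1Δ and 13 and 16 in cph2Δ, against 12 and 4 in wt, and to 32 and 49 in set2Δ against 11 and 7 in wt2. For these the set2Δ ratio was 4.16 (2.47 to 7.37), and those of cph1Δ and cph2Δ were 2.09 (1.15 to 3.99) and 1.62 (0.85 to 3.20), or 4.05 and 3.14 without wt replicate 1. Several RNAs toward the middle of the gaps gave next to no counts: SPNCRNA.233 and SPNCRNA.333 at cen1 and SPNCRNA.367 and SPNCRNA.368 at cen2 were at 0 throughout, and SPNCRNA.396 had 2 counts, both in cph1Δ replicate 2. None of the last 4 has a unique 100-base window.

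**Figure D3:**
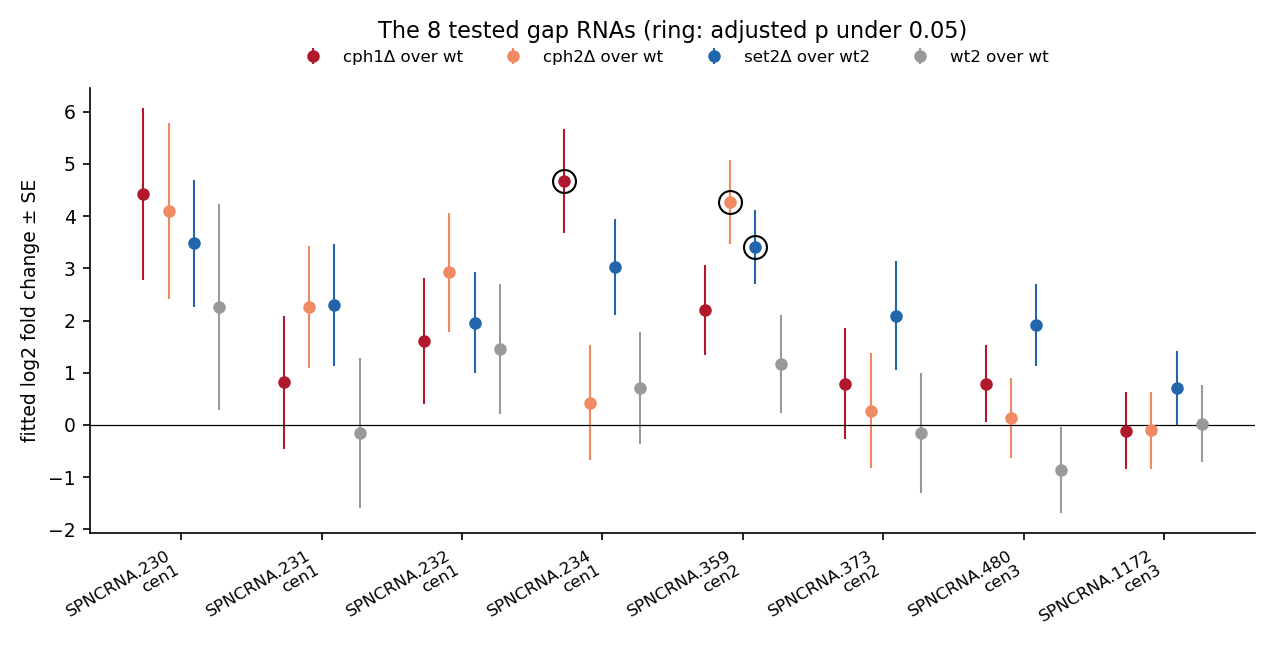
Fitted log2 fold change ± SE (y axis) of the 8 tested gap RNAs (x axis) in cph1Δ over wt, cph2Δ over wt, set2Δ over wt2 and wt2 over wt, with a ring where the edgeR adjusted p is under 0.05. SPNCRNA.234 is ringed in cph1Δ (4.67) and SPNCRNA.359 in cph2Δ (4.26) and set2Δ (3.41). SPNCRNA.359 reached the test through the deletion libraries.

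Outside the gaps most neighbours of the centromeres did not pass the test. Of the 330 genes, 134 had enough counts for the test, 114 coding and 20 non-coding. In cph1Δ 7 of these 134 passed, 6 higher and 1 lower, where 5.62% of all tested genes passed (5.31% higher and 0.316% lower). In cph2Δ 5 passed, all higher, against 6.12% of all genes (5.21% higher and 0.908% lower), and in set2Δ 6 passed, all higher, against 4.89% (4.32% higher and 0.572% lower). The members' shares of 5.22%, 3.73% and 4.48% are near those of the genome. Both deletion libraries lay above both parent libraries for 43 of the 134 in cph1Δ (32.1%, against 28.8% of all tested genes), 43 in cph2Δ (32.1% against 27.9%) and 52 in set2Δ (38.8% against 31.3%). Both lay below for 26 in cph1Δ (19.4% against 23.1%), 29 in cph2Δ (21.6% against 22%) and 32 in set2Δ (23.9% against 26.8%). The median over the 134 was 0.03 in cph1Δ, 0.11 in cph2Δ and 0.14 in set2Δ, beside 0.02, 0.01 and 0.03 over all 5067 genes tested. The 75 tested coding genes that start within 30 kb of a gap had medians of -0.07, 0.04 and 0.02 in cph1Δ, cph2Δ and set2Δ, and the 39 farther ones 0.13, 0.16 and 0.21. Of the 12 tested non-coding RNAs outside the gaps none passed in any of the 3. Of all 599 tested non-coding RNAs, 1.67% passed in cph1Δ, 2.50% in cph2Δ and 3.17% in set2Δ. At an unadjusted p under 0.05 there were 1, 3 and 1 of the 12, beside 65, 86 and 99 of the 599. The medians were 0.04, -0.21 and 0.29 over the 12 and 0.31, -0.23 and 0.36 over the 599. DESeq2 called 1 of the 12, SPNCRNA.1443, lower in cph2Δ. In all, 11 genes passed in at least 1 deletion, and per1 and pat1 passed in all 3 (cph1Δ and cph2Δ share the wt libraries). Most genes called in cph1Δ and in cph2Δ share exon positions with another gene. Strand was not used in counting, so the values of such genes are uncertain. The numbers of calls without them are given at the end.

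**Figure D4:**
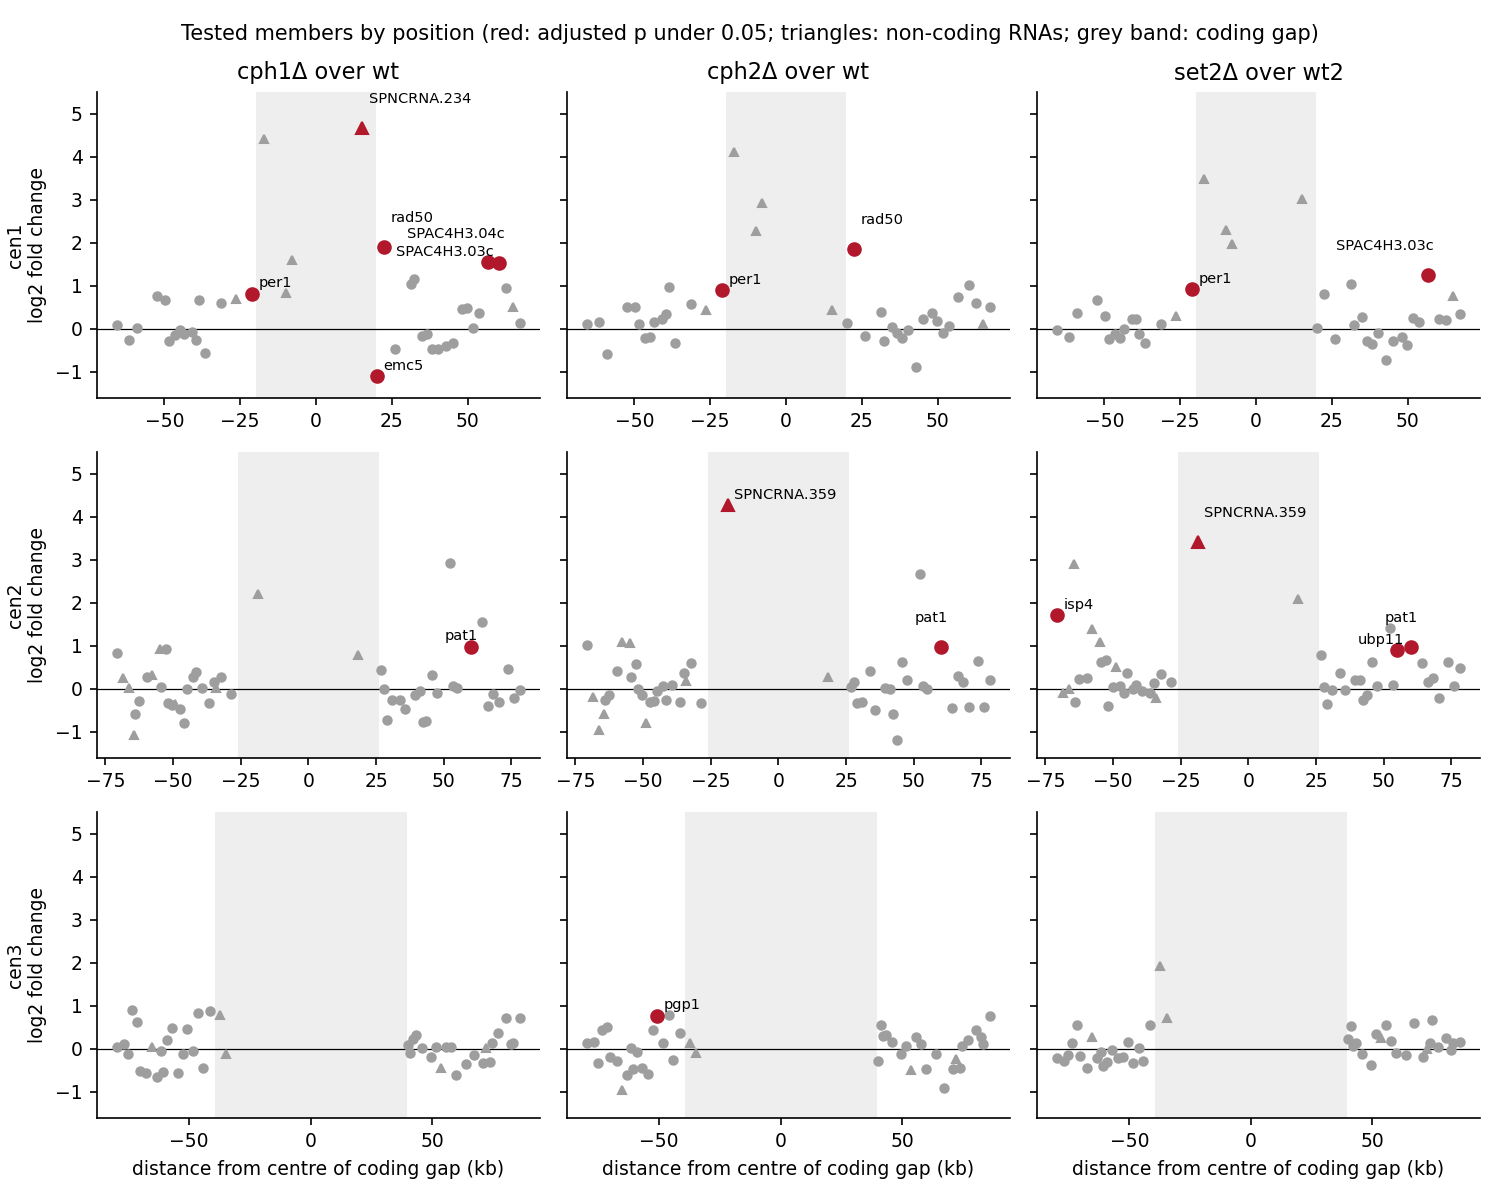
Fitted log2 fold change (y axis) of each tested gene against the distance of its midpoint from the centre of the coding gap in kb (x axis), for the 3 centromeres (rows) and 3 deletions (columns). Circles are coding genes, triangles non-coding RNAs, red symbols passed the test and the grey band is the coding gap. In cph1Δ, 6 of the 7 red symbols are at cen1 and none is at cen3.

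At cen1, 6 of 40 tested genes passed in cph1Δ (15%, against 5.62% of all tested genes). There 2 passed in cph2Δ (5% against 6.12%) and 2 in set2Δ (5% against 4.89%). In cph1Δ the genes at both edges of the gap were among them. No test set the centromeres against each other. per1, an amino acid permease gene at the left edge (3748767 to 3751729), stood at 97.9 and 89.3 CPM in cph1Δ and 87.9 and 110.2 in cph2Δ, against 48.4 and 57.7 in wt, and at 79.3 and 94.4 in set2Δ against 43.3 and 48.0 in wt2. All 6 deletion libraries were above all 4 parent libraries. It rose by 0.82 ± 0.18 in cph1Δ (edgeR adjusted p = 0.0255), 0.90 ± 0.19 in cph2Δ (0.0159) and 0.93 ± 0.19 in set2Δ (0.0155), or 1.76-fold, 1.87-fold and 1.91-fold. The next coding gene to the left with counts, prm1, known for cell fusion in mating, did not pass, with 0.59 ± 0.22 in cph1Δ (edgeR adjusted p = 0.147), 0.58 ± 0.22 in cph2Δ and 0.10 ± 0.22 in set2Δ, and it shares most of its exon bases with other genes.

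emc5, at the right edge of the cen1 gap (3790912 to 3791756), encodes a subunit of the endoplasmic reticulum membrane protein complex and was the only member that edgeR called lower. It stood at 16.3 and 26.9 CPM in cph1Δ and 41.0 and 60.6 in cph2Δ, against 48.8 and 43.6 in wt, and at 44.4 and 56.0 in set2Δ against 53.6 and 45.4 in wt2. Both cph1Δ libraries lay below the other 8. It fell by 1.10 on the log2 scale (SE 0.27, edgeR adjusted p = 0.0394), with 0.14 ± 0.27 in cph2Δ and 0.02 ± 0.27 in set2Δ. SPNCRNA.234, raised in the same strain, ends a few kilobases upstream of emc5 on the same strand. In set2Δ SPNCRNA.234 had a fitted value of 3.02 (edgeR adjusted p = 0.0924) with emc5 at 0.02. A link between these 2 genes was not tested. rad50, the next gene to the right and a subunit of the Mre11 double-strand break repair complex, stood at 29.7 and 28.5 CPM in cph1Δ and 30.0 and 26.7 in cph2Δ, against 9.998 and 5.59 in wt, and at 17.3 and 17.6 in set2Δ against 10.4 and 9.62 in wt2. The groups did not overlap in any deletion. It rose by 1.90 ± 0.30 in cph1Δ (edgeR adjusted p = 0.0046) and by 1.86 ± 0.30 in cph2Δ (0.00461), 3.72-fold and 3.62-fold, with 0.81 ± 0.29 in set2Δ (0.157). Only 52.2% of the exon bases of rad50 are unshared, and strand was not used in counting, so its value is uncertain. sdh1, the succinate dehydrogenase gene after it, stood at 979.6 and 775 CPM in cph1Δ against 1065 and 1357 in wt, and did not pass (edgeR adjusted p = 0.25).

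Farther right at cen1, neighbouring genes SPAC4H3.03c, annotated by RefSeq as a glucan alpha-glucosidase, and SPAC4H3.04c, an uncharacterised protein gene, rose together in cph1Δ. SPAC4H3.03c stood at 64.6 and 100.2 CPM in cph1Δ and 48.9 and 44.8 in cph2Δ, against 36.1 and 20.3 in wt, and at 78.7 and 65.0 in set2Δ against 30.6 and 30.1 in wt2. It rose by 1.55 ± 0.28 in cph1Δ (edgeR adjusted p = 0.00876) and by 1.24 ± 0.28 in set2Δ (0.0261), with 0.73 ± 0.28 in cph2Δ (0.141). SPAC4H3.04c stood at 16.5 and 23.4 CPM in cph1Δ and 14.8 and 13.6 in cph2Δ, against 9.01 and 4.85 in wt, and at 15.3 and 11.99 in set2Δ against 11.5 and 11.9 in wt2. It rose by 1.52 ± 0.35 in cph1Δ (edgeR adjusted p = 0.0295), with 1.03 ± 0.35 in cph2Δ (0.104) and 0.22 ± 0.34 in set2Δ (0.792). In wt both genes were lower in replicate 2 than in replicate 1.

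At cen2, 1 of 50 tested genes passed in cph1Δ (2%, against 5.62% of all tested genes). In cph2Δ 2 passed (4% against 6.12%), and in set2Δ 4 did (8% against 4.89%). The genes at the edges of the cen2 gap did not pass in any deletion. rpb1, the largest subunit of RNA polymerase II at the left edge, stood at 547 and 575 CPM in cph1Δ and 567 and 400.3 in cph2Δ, against 669 and 553 in wt, and at 579 and 662 in set2Δ against 547 and 570.2 in wt2. Its fitted values were -0.12 ± 0.22, -0.34 ± 0.23 and 0.15 ± 0.22. hmo1, a factor of RNA polymerase I transcription, gave 0.28, 0.59 and 0.34 in cph1Δ, cph2Δ and set2Δ, and the SAGA subunit gene ngg1 gave 0.17, 0.36 and 0.14. yox1 at the right edge, a corepressor of the MBF complex, stood at 33.8 and 28.1 CPM in cph1Δ and 27.9 and 19.8 in cph2Δ, against 26.5 and 19.4 in wt, and at 26.0 and 28.2 in set2Δ against 17.6 and 13.6 in wt2, with 0.80 ± 0.27 in set2Δ (edgeR adjusted p = 0.132). It shares positions with rec6, which was at 0. dpm2, a regulatory subunit of dolichol phosphate mannose synthesis, had values of 0.01, 0.16 and 0.04.

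The cen2 coding genes that passed lay 28.2 kb or more from the gap. pat1, also called ran1, encodes the kinase that holds cells back from meiosis. It stood at 97.5 and 71.7 CPM in cph1Δ and 89.8 and 77.7 in cph2Δ, against 46.6 and 38.9 in wt, and at 74.8 and 79.7 in set2Δ against 34.3 and 44.6 in wt2. All 6 deletion libraries were above all 4 parent libraries, and it rose by 0.98 ± 0.21 (edgeR adjusted p = 0.0187), 0.97 ± 0.21 (0.0195) and 0.97 ± 0.21 (0.0216). isp4, an oligopeptide transporter gene known to be induced in sexual development, stood at 73.8 and 68.7 CPM in cph1Δ and 69.8 and 92.7 in cph2Δ, against 40.1 and 39.6 in wt, and at 57.5 and 128 in set2Δ against 29.1 and 28.01 in wt2. It rose by 1.70 ± 0.31 in set2Δ (edgeR adjusted p = 0.0102), where the libraries were far apart, with 0.84 ± 0.30 in cph1Δ (0.133) and 1.03 ± 0.30 in cph2Δ (0.0682). ubp11, a ubiquitin hydrolase gene, stood at 57.5 and 42.6 CPM in set2Δ against 25.9 and 27.7 in wt2 and rose by 0.90 ± 0.20 (edgeR adjusted p = 0.025). Its level in set2Δ was near that of the other background, 46.3 and 42.0 in cph1Δ and 40.6 and 45.8 in cph2Δ against 42.6 and 43.9 in wt.

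At cen3, 1 of 44 tested genes passed in cph2Δ (2.27%, against 6.12% of all tested genes). None passed there in cph1Δ (against 5.62%) or in set2Δ (against 4.89%). The single call was pgp1, annotated by RefSeq as a metallopeptidase. It stood at 58.0 and 62.1 CPM in cph1Δ and 72.6 and 77.3 in cph2Δ, against 41.2 and 46.6 in wt, and at 68.6 and 59.2 in set2Δ against 58.7 and 55.9 in wt2. It rose by 0.77 ± 0.17 in cph2Δ (edgeR adjusted p = 0.02), with 0.45 ± 0.17 in cph1Δ (0.14) and 0.16 ± 0.17 in set2Δ (0.685). chk1, the DNA damage checkpoint kinase gene at the left edge of the gap, stood at 27.3 and 38.1 CPM in cph1Δ and 22.7 and 23.4 in cph2Δ, against 22.3 and 13.2 in wt, and at 27.2 and 26.1 in set2Δ against 17.2 and 18.9 in wt2. Each deletion was above its parent without overlap, but none passed (0.88 ± 0.28 in cph1Δ, edgeR adjusted p = 0.0965, 0.38 ± 0.28 in cph2Δ and 0.56 ± 0.28 in set2Δ), and chk1 has 39.2% of its exon bases to itself. The other named neighbours did not pass either: ubc11, a ubiquitin-conjugating enzyme gene, gave -0.44, -0.25 and -0.28, ppc1, of coenzyme A synthesis, 0.09, -0.27 and 0.23, cmc2 -0.09, 0.56 and 0.54, and cbp3, an assembly factor of the cytochrome bc complex, 0.24, 0.30 and 0.07 in cph1Δ, cph2Δ and set2Δ.

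**Figure D5:**
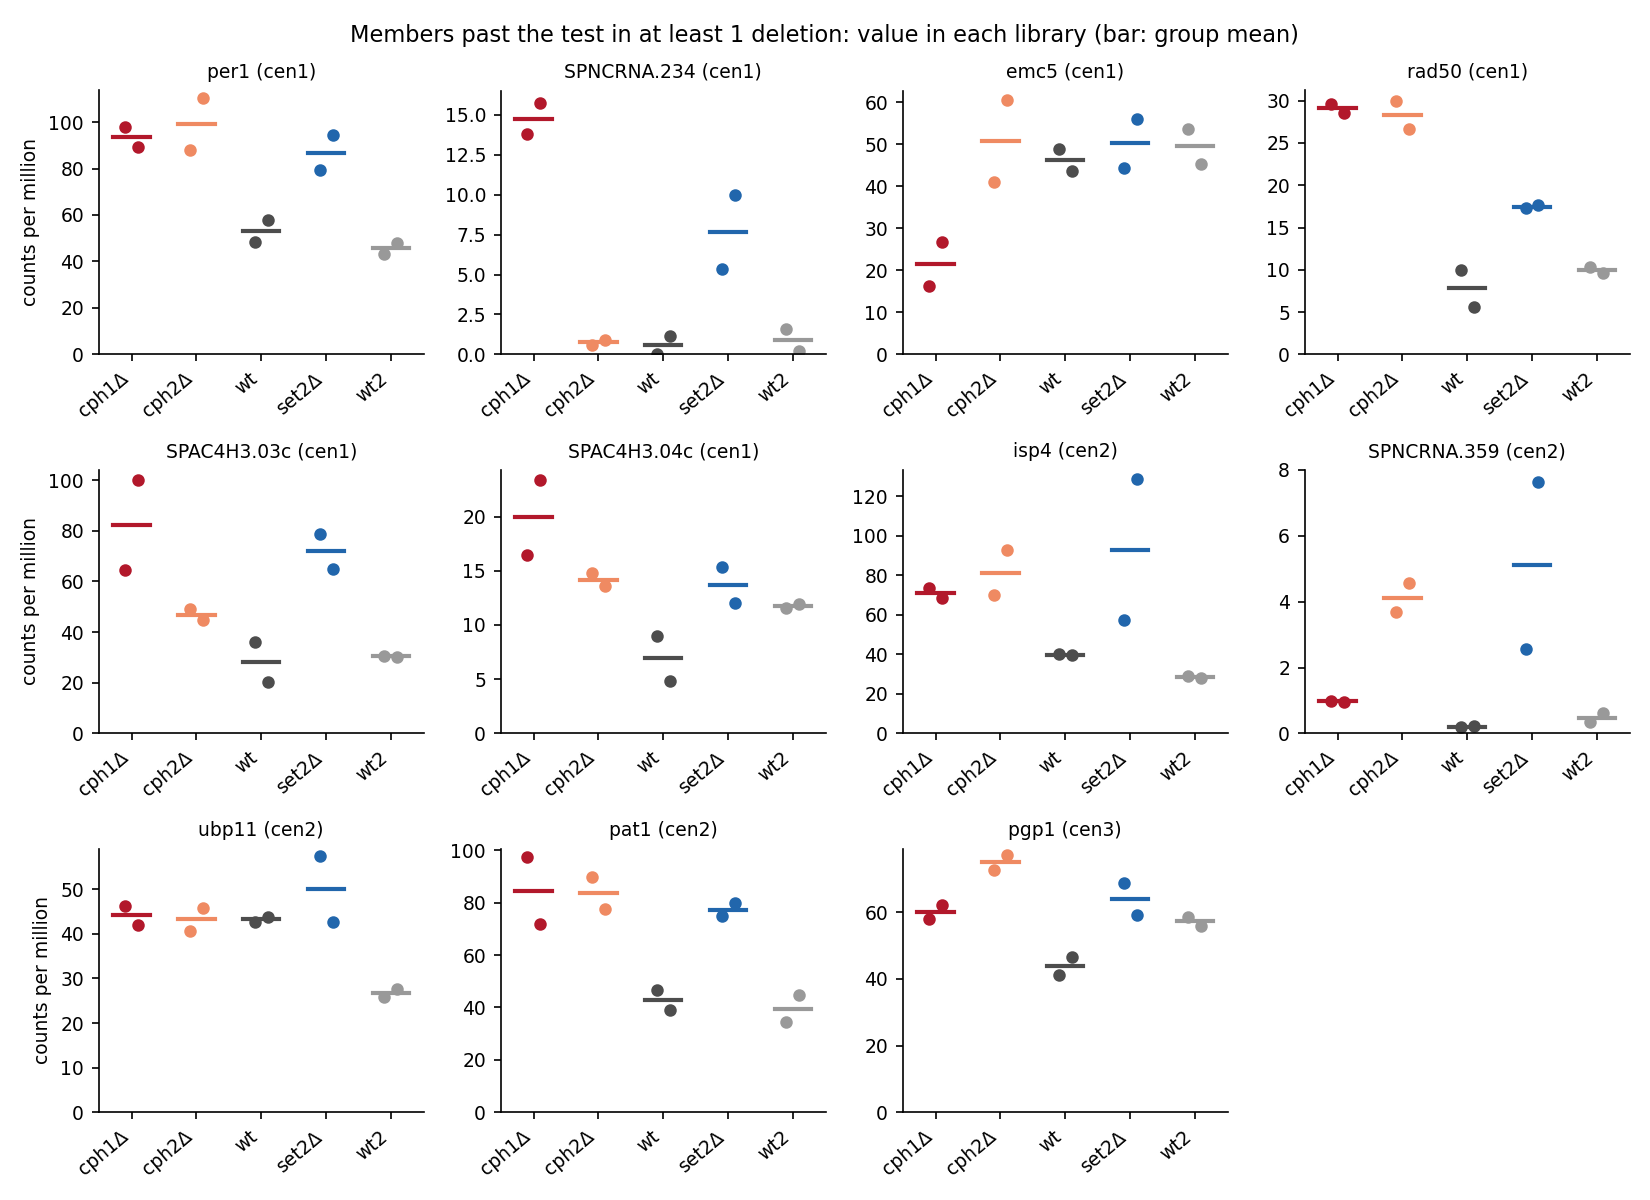
TMM-scaled CPM (y axis) in each library (points) and the group mean (bar) of the 11 genes that passed in at least 1 deletion, for cph1Δ, cph2Δ, wt, set2Δ and wt2 (x axis). per1 and pat1 are higher in all 6 deletion libraries than in all 4 parent libraries, and emc5 is lowest in the 2 cph1Δ libraries.

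The most abundant genes of the windows, on a scale of CPM per kb of exon averaged over all libraries, did not pass in any deletion. They were fba1 (8588), the aldolase gene of glycolysis, the ribosomal protein gene rpl26 (5129.7) and the cyclophilin gene ppi1 (2100.4) at cen2, rpl42 (2609), tma19 (2502) and the phosphomannomutase gene pmm1 (859) at cen1, and the ribosomal protein gene rps1802 (2855), nro1 (276) and cox9 (274) at cen3. Between libraries of 1 strain fba1 ran as far apart as 11032 and 6127 CPM in cph1Δ, beside 9618 and 12932 in wt.

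The deletions were also compared directly. In cph1Δ over cph2Δ, 3 of 5067 genes passed (0.0592%), none of them a member, and 10 members (7.46%) were under an unadjusted p of 0.05, beside 351 of all genes (6.93%). SPNCRNA.234 was 4.24 ± 0.95 higher in cph1Δ (edgeR adjusted p = 0.345) and emc5 was 1.24 lower (SE 0.27, edgeR adjusted p = 0.345). DESeq2 called these 2 members, with 4.26 (DESeq2 adjusted p = 0.000247) and -1.24 (0.015), and edgeR on the 4 compared libraries alone called SPNCRNA.234 (adjusted p = 0.0458). SPNCRNA.359 was lower in cph1Δ by 2.07 (SE 0.65, edgeR adjusted p = 0.677). The cph1Δ effect minus the set2Δ effect passed for no member (0.868% of all genes), and neither did the cph2Δ effect minus the set2Δ effect (1.26%), by edgeR or by DESeq2, with 6 members each (4.48%) under an unadjusted p of 0.05, beside 426 (8.41%) and 589 (11.6%) of all genes.

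In wt2 over wt no member passed by edgeR or by DESeq2, where 0.197% of all genes passed by edgeR, and 9 members (6.72%) were under an unadjusted p of 0.05, beside 368 of all genes (7.26%). Both wt2 libraries lay above both wt libraries for 26 of the 134 members (19.4%, against 19.7% of all genes) and below for 25 (18.7% against 18.1%). Among the 9 were ubp11 at -0.69 ± 0.20 (edgeR adjusted p = 0.302) and pgp1 at 0.38 ± 0.17 (0.656). The median over members was 0.02.

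Genes that act at centromeres but mostly lie elsewhere were counted beside the members. Both lists below were chosen with earlier results of these data known, so their counts and medians only describe them. No set test was run. Of a list of kinetochore and CENP-A loading genes, 49 were tested, and 7 rose in cph1Δ, 8 in cph2Δ and 4 in set2Δ, with none lower and none called in wt2 over wt. Over all genes, 5.31%, 5.21% and 4.32% rose. Without wt replicate 2, when calls over all genes dropped to 41 in cph1Δ and 64 in cph2Δ, 1 of the 49 passed in each. In cph1Δ 3 passed without cph1Δ replicate 2, in cph2Δ 2 without cph2Δ replicate 2, and in set2Δ none without either wt2 replicate or without set2Δ replicate 2 and 2 without set2Δ replicate 1. bir1, the survivin of the chromosomal passenger complex, rose by 1.46 ± 0.18 in cph1Δ (edgeR adjusted p = 0.00195) and by 1.47 ± 0.18 in cph2Δ (0.00116), and by 0.94 ± 0.18 in set2Δ (0.0122). spc19, of the DASH complex, rose by 1.45 ± 0.26 in cph1Δ, 1.27 ± 0.26 in cph2Δ and 1.44 ± 0.26 in set2Δ. The outer kinetochore gene spc7 and the CENP-T gene cnp20 rose in both cph1Δ (1.39 and 1.34) and cph2Δ (0.99 and 1.45), and in set2Δ the CENP-B homologue abp1 (0.75) and the CENP-C gene cnp3 (0.73) rose. The list's median was 0.35 in cph1Δ, 0.27 in cph2Δ, 0.14 in set2Δ and 0.11 in wt2 over wt, beside 0.02, 0.01, 0.03 and 0.01 over all genes. It has 3 members in the windows: sgo2 and moa1 at cen1 were not tested, and ask1 at cen2, also of DASH, did not pass (0.28, 0.41 and 0.25).

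A list of pericentromeric heterochromatin and RNA interference genes has none in the windows. Of the 25 tested, 10 rose in cph1Δ, 6 in cph2Δ and 3 in set2Δ, with none lower. Over all tested genes, 5.31% rose in cph1Δ, 5.21% in cph2Δ and 4.32% in set2Δ. Without wt replicate 2 there were 2 in cph1Δ and 2 in cph2Δ, without cph1Δ replicate 2 there were 3 in cph1Δ, and in set2Δ there was none without either wt2 replicate or without set2Δ replicate 1. mit1, the remodeller of the SHREC complex, rose by 1.68 ± 0.24 in cph1Δ (edgeR adjusted p = 0.00292), 1.69 ± 0.24 in cph2Δ (0.00256) and 1.01 ± 0.23 in set2Δ (0.0303). The RNA interference gene ers1 (1.40 and 1.30) rose in cph1Δ and cph2Δ, as did the Dicer gene dcr1 (1.08 and 0.99), and hrr1 rose in cph1Δ (1.33). The HP1 gene chp2 rose by 1.06 ± 0.22 in set2Δ. The median was 0.57 in cph1Δ, 0.45 in cph2Δ, 0.43 in set2Δ and -0.00166 in wt2 over wt, beside the all-gene medians above. bir1, mit1, ers1, hrr1, dcr1, abp1 and cnp3 share exon positions with another gene.

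The member calls rest on few libraries, and so do the calls over all genes. Leaving out wt replicate 2 left 1 member called in cph1Δ, SPNCRNA.234, and 0 in cph2Δ, while calls over all genes were 41 in cph1Δ (285 with every library) and 64 in cph2Δ (310). Without cph1Δ replicate 2 there were 3 members, and 80 genes in all, in cph1Δ. Without cph2Δ replicate 2 there was 1 member in cph2Δ (91 genes), and without cph2Δ replicate 1 there were 8 (440 genes). In set2Δ, with 248 genes called from every library, there was no member without wt2 replicate 1 (72 genes) or wt2 replicate 2 (54), 3 without set2Δ replicate 1 and 2 without set2Δ replicate 2. Without wt replicate 2 and cph1Δ replicate 2, the libraries with the lowest and the highest scaling factor, wt and cph1Δ kept 1 library each. The member calls in cph1Δ and cph2Δ were then lost, and calls over all genes fell steeply there too. In set2Δ most calls stayed. Gene by gene, over the 4 fits that leave out 1 compared library, rad50 passed in 3 in cph1Δ (adjusted p 0.00867 to 0.0597) and in 3 in cph2Δ (0.00617 to 0.0527), each time lost without wt replicate 2. per1 passed in 0 of 4 in cph1Δ (0.0672 to 0.105), in 1 in cph2Δ (0.0168 to 0.149) and in 1 in set2Δ (0.0401 to 0.149). pat1 passed in 2 in cph1Δ (0.0386 to 0.216), in 1 in cph2Δ (0.044 to 0.185) and in 0 in set2Δ (0.0752 to 0.206). emc5 passed only without cph1Δ replicate 2 (0.0470 to 0.152), with log2 values from -1.51 to -0.77. SPAC4H3.03c passed in 2 in cph1Δ and in 0 in set2Δ, SPAC4H3.04c in 2 in cph1Δ, isp4 in 2 and ubp11 in 1 in set2Δ, and pgp1 in 1 in cph2Δ. No called gene changed direction in any of these leave-one-out fits. Among the 165 members it tested, DESeq2 called 13 in cph1Δ (7.88%, against 8.29% of its 5691 genes), 12 in cph2Δ (7.27% against 9.24%) and 8 in set2Δ (4.85% against 6.27%).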

How the data were processed

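Poly(A)-selected RNA from 10 libraries, 2 per strain, had been counted by the authors. The table they deposited holds unnormalised read counts, made with featureCounts v2.0.1, with annotation ASM294v2.57, exon features and default options, per the file headers. So strand was not used, and reads mapping to several places or lying on several genes were dropped. STAR 2.7.10a, SAMtools 1.16.1 and DESeq2 1.36.0 are named in the submitters' processing notes, and the read length is not given in the sources used here.

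The counts were tested with edgeR 4.0.16 (quasi-likelihood F-test, TMM scaling, filterByExpr, 5 strains in 1 fit, 5 residual degrees of freedom), with Benjamini-Hochberg adjustment over 5067 genes and a threshold of 0.05. The 2201 genes removed held 0.0105% of counts. The script was tested on simulated data. The members and lists were chosen with earlier results of these data known. Genes named are those beside each gap, those called, the tested gap RNAs, the 3 highest per centromere and the leading called genes of each list. Replicates of a strain differed by 38.0 to 112 times sampling noise (chi-square per degree of freedom), so none was merged in the fit. The count ratios of gap RNAs did pool the 2 libraries of a group, and their intervals leave this spread out. Same-numbered libraries gave correlations of -0.41, 0.23 and 0.26 over 2 pairs a comparison and were not treated as pairs. Alternatives were DESeq2 1.42.0, other scalings, filters, windows and samples. Sequences came from RefSeq (ASM294v3) by identifier, and 269 of 330 members matched.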

Additional observations from a re-analysis of the deposited data

How the results depend on the processing

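Depth and replication limit these results: 24 of 32 gap RNAs had too few counts to test, and 2 libraries a strain leave calls that single libraries decide. Of 4014 values of single named genes under the alternatives, 157 no longer passed the test, 22 passed newly and 3835 stayed on their side of the threshold, and no gene that passed in the fit of all libraries changed sign. Medians over members did change sign, as given below. The cause of the changes below was not tested.

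Calls in cph1Δ (7) were 4 in narrower windows, 3 without shared exon positions, 13 by DESeq2 and 4 with only the compared libraries, and 1 to 9 with 1 library left out. Those in cph2Δ (5) were 1 without shared exon positions, 8 without a filter on low counts, 12 by DESeq2, 3 with only the compared libraries and 0 to 8 with 1 library left out. Those in set2Δ (6) were 3 in narrower windows, 3 with only the compared libraries and 0 to 7 with 1 library left out. With only the compared libraries, 3.10%, 2.34% and 2.29% of members were called in cph1Δ, cph2Δ and set2Δ. Beside them stood 3.39%, 2.49% and 6.35% of all genes. Without a filter on low counts, 4.85% of members and 6.36% of all genes were called in cph2Δ. Leaving out the libraries of lowest and highest scaling factor was added after seeing the data. It took away the member calls in cph1Δ and cph2Δ, where calls over all genes fell steeply too. In cph1Δ over cph2Δ there were 2 calls by DESeq2, 1 with only the compared libraries and 0 to 1 with 1 library left out. The cph2Δ effect minus the set2Δ effect gave 0 to 1 with 1 library left out.

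With the replicate number as a block the calls were 7, 5, 6 and 0, unchanged in number. With the numbers crossed, added after seeing the data, they were 11, 8 and 6. These were 8.21%, 5.97% and 4.48% of members, beside 7.68%, 8.80% and 6.65% of all genes.

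The median over members in cph1Δ was -0.0372 in narrower windows, -0.0419 without shared exon positions and -0.0190 to 0.111 with 1 library left out. In cph2Δ it was -0.0917 to 0.198 with 1 library left out. In set2Δ it was 0.0724 in narrower windows, 0.0760 over coding members and 0.0518 to 0.135 with 1 library left out. In wt2 over wt it was 0.0766 in narrower windows, -0.0756 without shared exon positions, 0.0554 over coding members, 0.0112 with RLE scaling, 0 without a filter, 0 by DESeq2, 0.00930 with only the compared libraries and -0.0116 to 0.0569 with 1 library left out.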
